A study of Mus musculus with 24 samples.

Results

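Respiratory complexes II to V are described here at the level of their nuclear-encoded subunit transcripts in mouse liver. Members were all entries of the expression table whose symbol begins as succinate dehydrogenase (Sdha to Sdhd), Uqcr, Cox4 to Cox8 or Atp5 and carries no further separator, which leaves out pseudogene names. The rule found 49 entries under 48 symbols among 55536, with 4 in complex II, 8 in complex III, 19 in complex IV and 18 in complex V. The series holds 24 liver libraries from Balb/c mice of wild-type genotype aged 6 weeks, in 3 groups of 8: healthy controls (Con), acute pancreatitis (AP), in which the pancreas is inflamed, and severe acute pancreatitis (SAP). All groups share strain, genotype and age. The sources used here do not give how pancreatitis was brought about or the time of sampling. Labels number the libraries of a group but do not state that each is a separate mouse. The p-values therefore reflect only the spread of these libraries, which may be technical.

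Complex II oxidises succinate and passes electrons to ubiquinone, complex III passes them from ubiquinol to cytochrome c, complex IV passes them from cytochrome c to oxygen, and complex V uses the resulting proton gradient to make ATP. Complex II is built from nuclear genes only, while the mitochondrial genome encodes cytochrome b of complex III, the catalytic subunits of complex IV and a pair of membrane subunits of complex V. The liver needs this ATP for urea and glucose synthesis, and several complex IV subunits have a liver form and a form found mainly in muscle, lung or testis.

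Levels are read as transcripts per 1000000 (TPM), a unit that was inferred. TPM is a value per transcript length, and on that reading levels of different genes are set side by side here. Such comparisons are uncertain where a member shares sequence with other transcripts. The deposited libraries summed to 986423 to 993642 TPM, and their depth is unknown, since such values carry no read totals. Changes were tested with limma on log2(TPM + 1) over the 10555 genes that averaged 1 TPM or more, and a gene passed where its p, adjusted by Benjamini-Hochberg over all of them, was under 0.05. Fold changes are on that scale, which understates changes of low genes. Each call was repeated with each of the 16 libraries of a comparison left out in turn and under 4 other scalings of the libraries (quantile normalization, centring each library on its median, and rescaling without mitochondrial genome transcripts or without the 50 most abundant genes). The hepatocyte markers Alb, Apoa1, Ttr, Serpina1a, Ahsg, Cps1 and Hnf4a summed to 44789.8 to 53790.3 TPM in controls, 43407 to 59478 TPM in AP and 40679 to 52654 TPM in SAP, so the labelled tissue carried its markers in every group. Most of that sum was Alb and Apoa1. In SAP 2 of the 7 were called lower and 1 higher, where 29.8% and 44.2% of all genes tested were. Cps1 was at 496 to 1252 TPM in controls and 154 to 554 TPM in SAP, Ttr at 4678 to 8430 and 2076 to 3781 TPM, and Hnf4a at 48.5 to 68.8 and 57.4 to 124.7 TPM. Transcripts of the mitochondrial genome took 17.1 ± 3.68 in controls, 10.9 ± 2 in AP and 4.46 ± 1.02 in SAP (% of TPM, mean ± SD, n = 8), and serum amyloid A transcripts, of an acute-phase protein, took 0.327 ± 0.411 in controls, 0.731 ± 0.366 in AP and 9.52 ± 1.98 in SAP (% of TPM). Because TPM is relative to a fixed total, these shifts move all other values too. In a whole-liver library, fewer cells of a type and less RNA per cell cannot be told apart.

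Of the 49 entries, 43 passed the filter on low values. The other 6 (Cox4i2, Cox6a2, Cox6c2, Cox7b2, Cox8c and the second of a pair of entries named Atp5o) had a mean under 1 TPM. Among tested members, Sdha, Uqcrb, Uqcrc2, Uqcrh, Cox4i1, Cox5a, Cox6c, Atp5a1, Atp5d, Atp5f1, Atp5j, Atp5l and Atp5o overlap a gene on the other strand and Cox4i1, Cox7c, Atp5b, Atp5c1, Atp5g2 and Atp5o a gene on the same strand; reads of such pairs may not have been told apart. The 49 entries together took 1.55 ± 0.149 in controls, 1.78 ± 0.137 in AP and 1.33 ± 0.0819 in SAP (% of TPM), and all 8 SAP libraries lay below every AP library while 5 of them lay below every control. Such a sum weighs the most abundant members most. The highest in controls, Uqcrq, Atp5e and Uqcr11, had means of 2393, 1458 and 1034 TPM there and 853, 595 and 542 TPM in SAP. The median log2 change of the tested members in SAP was 0.12, so the sum does not describe a typical member. Complex III alone summed to 2537 to 3202 TPM in SAP and 4312 to 5385 TPM in controls, ranges that do not overlap. Most of that control sum was Uqcrq and Uqcr11, and members of complex III were called in both directions, as given below.

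In AP, 16 of the 43 tested members rose against controls (37.2%) and 0 fell, with 23 at an unadjusted p under 0.05. Over all 10555 genes tested, 4.35% were called higher and 1.13% lower in this comparison, 5.48% in either direction. The median change of the tested members was 0.40 on the log2 scale, against 0.062 over all genes tested, and 36 of 43 had a positive change. Of those 36, 5 that were not called (Atp5e, Cox7c, Uqcr11, Uqcrb and Atp5h) had a negative change in all 4 other scalings. In 2 members, Cox4i1 and Sdhc, all 8 AP libraries lay above all 8 controls; 0.644% of all genes tested were separated in that direction. Rises came from each complex: 1 of 4 tested members in complex II, 4 of 8 in complex III, 6 of 14 in complex IV and 5 of 17 in complex V. In SAP against controls 18 members rose, 16 fell and 9 did not pass. That is 79.1% called where 74.0% of all genes tested were called, with 44.2% of all genes called higher and 29.8% lower, so the share called was near the background. The members split within each complex, with 2 higher and 1 lower in complex II, 4 and 3 in complex III, 4 and 6 in complex IV and 8 and 6 in complex V. Their changes ran from -1.51 for Uqcrq to 2.52 for Cox7a2l, with a median of 0.12 against 0.21 over all genes tested; with centring these medians were -0.15 and -0.063. Groups did not overlap for 12 members above and 11 below the controls, where 23.2% and 14.6% of all genes tested were separated that way.

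**Figure D1:**
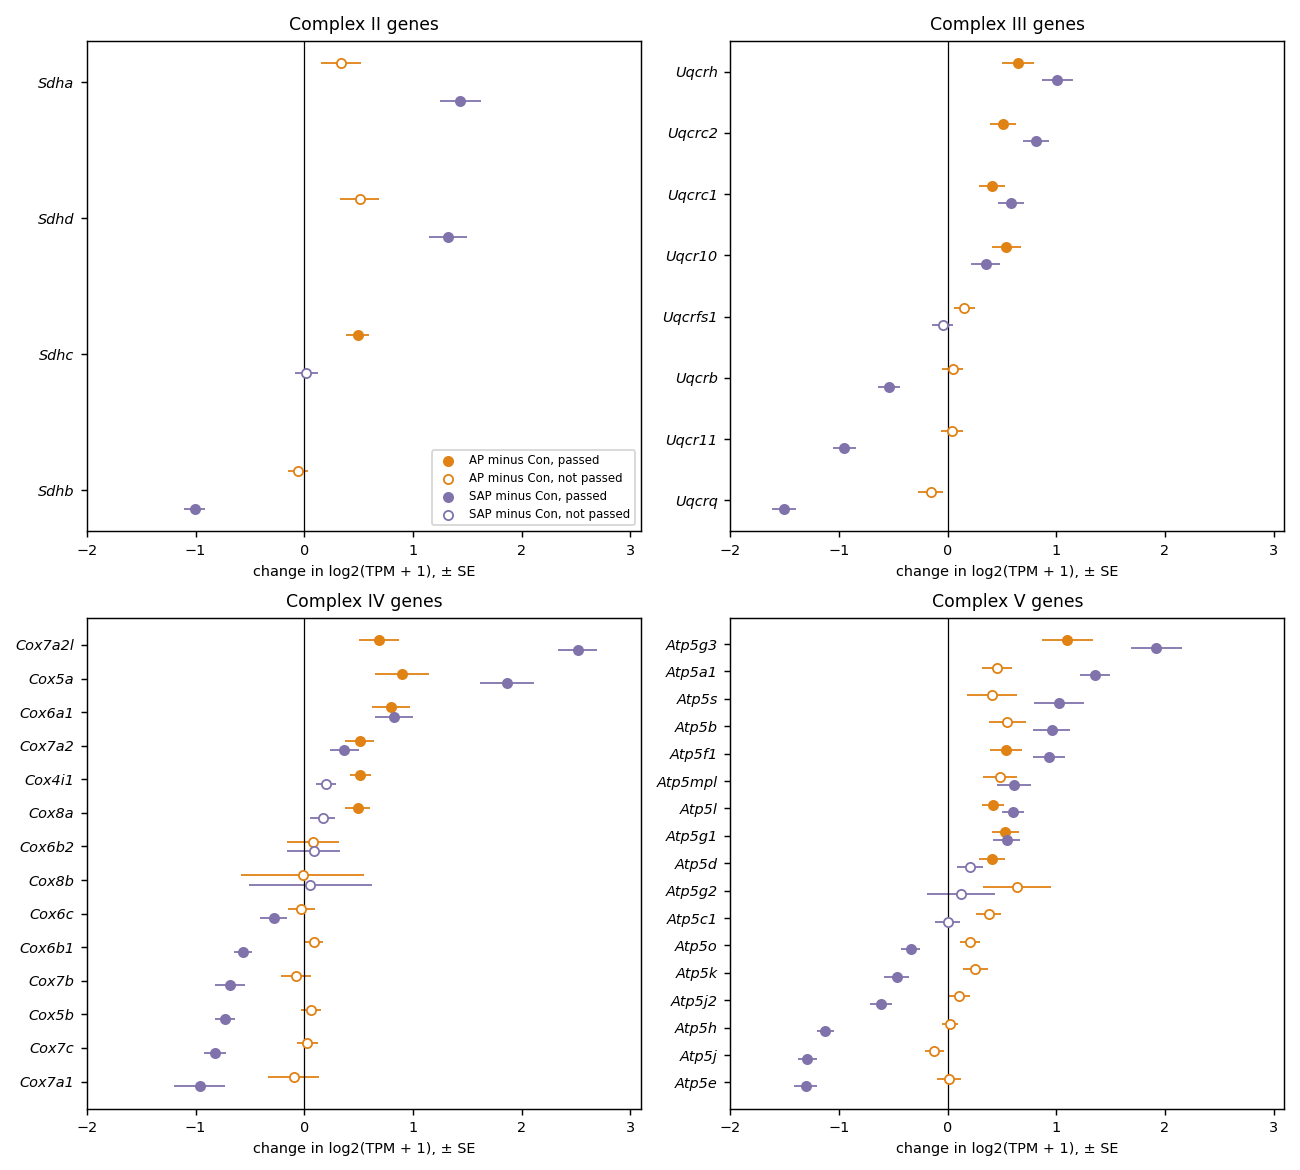
Change of each tested member in log2(TPM + 1) against controls, with its standard error, in AP (orange) and SAP (purple), by complex and ordered by the change in SAP; filled points passed at an adjusted p under 0.05. In SAP the members of every complex spread to both sides of 0, from -1.51 for Uqcrq to 2.52 for Cox7a2l, while every filled AP point lies to the right of 0.

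Promoter sequences are shown for the members that moved most in SAP in either direction, as material for reading the split beside known motifs of respiratory genes. RefSeq promoters on GRCm38.p6 (250 bases before to 50 after a start) were found for 36 of the 48 symbols, 34 by symbol and 2 by synonym. Among members with 1 start in that table and a passed test, the largest rises were those of Cox7a2l and Atp5g3 and the largest falls those of Atp5e and Atp5h. The 250 bases before the start are printed 5′ to 3′ on the gene's strand, which is the minus strand for all 4, with matched motifs in capitals. Cox7a2l (chr17:83514334-83514583) held none of the motifs searched, Atp5g3 (chr2:73911327-73911576) an ERR and a CCAAT match, Atp5e (chr2:174464102-174464351) an ETS match and 2 CCAAT matches, and Atp5h (chr11:115419920-115420169) an NRF1, an ETS and 2 CCAAT matches.
Cox7a2l: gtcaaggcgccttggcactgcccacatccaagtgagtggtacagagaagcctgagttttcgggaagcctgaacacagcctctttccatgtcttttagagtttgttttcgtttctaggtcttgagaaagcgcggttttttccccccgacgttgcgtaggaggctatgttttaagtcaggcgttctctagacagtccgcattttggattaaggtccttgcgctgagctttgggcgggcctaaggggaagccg
Atp5g3: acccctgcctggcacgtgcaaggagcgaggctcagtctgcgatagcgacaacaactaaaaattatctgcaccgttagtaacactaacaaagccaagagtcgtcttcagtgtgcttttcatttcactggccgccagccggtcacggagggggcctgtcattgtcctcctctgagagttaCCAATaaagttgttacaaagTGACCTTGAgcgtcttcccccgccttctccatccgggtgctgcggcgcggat
Atp5e: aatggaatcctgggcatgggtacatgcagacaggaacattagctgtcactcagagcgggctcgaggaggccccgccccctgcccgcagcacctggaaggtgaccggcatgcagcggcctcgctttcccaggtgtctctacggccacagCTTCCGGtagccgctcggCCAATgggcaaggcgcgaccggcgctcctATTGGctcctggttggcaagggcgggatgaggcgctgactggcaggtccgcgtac
Atp5h: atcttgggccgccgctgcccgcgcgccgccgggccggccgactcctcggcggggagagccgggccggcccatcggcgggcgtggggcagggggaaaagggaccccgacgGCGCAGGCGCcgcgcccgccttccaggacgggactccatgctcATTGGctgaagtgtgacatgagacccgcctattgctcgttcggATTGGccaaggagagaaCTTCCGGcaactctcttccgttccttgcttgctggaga

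The motifs, searched on both strands of the 300 bases, were the NRF1 motif, CCGGAAG for ETS factors such as GABPA, AAGATGGC for YY1, TCAAGGTCA for ERR receptors, TGACGTCA for the cyclic AMP response element and CCAAT. None of these motifs contains another. The NRF1 motif was in 10 of the 36 members (27.8%) and in 5.19% of the 27025 genes with a promoter in the table, the ETS string in 12 (33.3%, against 9.93%) and CCAAT in 20 (55.6%, against 41.1%). ERR was matched in 2 members, Sdhd and Atp5g3 (5.56%, against 0.466%), YY1 in 3 (8.33%, against 3.19%) and the cyclic AMP element in 1, Uqcrfs1 (2.78%, against 2.03%). Among members with a promoter, NRF1 was matched in 5 of 15 that rose in SAP and 3 of 13 that fell, and the ETS string in 4 of 15 and 7 of 13. Both therefore occurred on both sides of the split, and both ERR matches were in members that rose. The NRF1 match of Atp5g3 lay in the 50 bases after the start. A match describes letters and is not a site.

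Complex II showed the split within its soluble pair. Sdha, the flavoprotein that holds the succinate site, was at 12.3 to 21.9 TPM in controls (median 15.9), 15.1 to 30.7 TPM in AP (median 19.8) and 27.1 to 74.6 TPM in SAP (median 42.6). Every SAP library lay above every control, and 7 of 8 lay above every AP library. The rise in SAP was 2.71-fold (log2 change 1.44 ± 0.18, SE, adjusted p = 1.53e-07). Sdhb, the iron-sulphur subunit that takes electrons from Sdha, was at 244 to 313 TPM in controls (median 265), 219 to 285 TPM in AP (median 272) and 112 to 157 TPM in SAP (median 139). Here every SAP library lay below every control and every AP library, and the level was 2.01-fold lower than in controls (log2 change -1.01 ± 0.093, adjusted p = 4.95e-10). The ratio of Sdha to Sdhb was 0.0594 ± 0.0087 in controls, 0.0802 ± 0.0187 in AP and 0.367 ± 0.167 in SAP (mean ± SD, n = 8), so Sdhb stayed the more abundant transcript in every group.

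The membrane anchors of complex II, which bind ubiquinone and haem, also differed. Sdhd was at 19.3 to 44.4 TPM in controls (median 30.9), 28.2 to 62.3 TPM in AP (median 40.02) and 53.5 to 94.4 TPM in SAP (median 73.1), 2.5-fold higher in SAP than in controls (log2 change 1.32 ± 0.18, adjusted p = 2.56e-07). Its 8 SAP libraries all lay above the controls. Sdhc was at 73.6 to 113 TPM in controls (median 100.2), 114 to 166 TPM in AP (median 126) and 89.5 to 105 TPM in SAP (median 97.1). The Sdhc level was highest in AP: all 8 AP libraries lay above all 8 controls and all 8 SAP libraries, with a log2 change of 0.49 ± 0.10 against controls (adjusted p = 0.00939). In SAP it lay among the controls, with a change of 0.02 (adjusted p = 0.871) that became -0.26 (adjusted p = 0.0296) when each library was centred on its median.

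In complex III, the core proteins and the hinge protein rose in SAP while the most abundant small subunits fell. Uqcrq, a small subunit next to cytochrome b and the highest member of all in controls, was at 2118 to 2787 TPM in controls (median 2383), 1831 to 2568 TPM in AP (median 2119) and 642 to 1113 TPM in SAP (median 833). All 8 SAP libraries lay below every control and every AP library, 2.85-fold below controls (log2 change -1.51 ± 0.11, adjusted p = 1.2e-11). Uqcr11, another small subunit, was at 931 to 1153 TPM in controls (median 1040.5), 907 to 1158 TPM in AP (median 1075) and 367 to 673 TPM in SAP (median 547) and fell 1.93-fold in SAP (log2 change -0.95 ± 0.10, adjusted p = 1.02e-08). Its SAP libraries were likewise all below the others. Uqcrb, which takes part in ubiquinone binding, went from 397 ± 41.2 TPM in controls to 273 ± 30.8 TPM in SAP (adjusted p = 3.42e-05), with 43.2% of its 50-base windows shared with other transcripts, so its level is uncertain; that call was lost with a length trend removed (log2 change -0.13, adjusted p = 0.249).

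Uqcrh, the hinge protein that helps cytochrome c bind, was at 119 to 239.7 TPM in controls (median 178), 194 to 332 TPM in AP (median 269) and 285 to 367 TPM in SAP (median 336). It rose in AP (log2 change 0.65 ± 0.15, adjusted p = 0.0134) and in SAP (1.01 ± 0.15, adjusted p = 9.04e-07), where all 8 libraries lay above the controls. Uqcrc2, a core protein of the matrix side, was at 38.6 to 59 TPM in controls (median 51.1), 52.4 to 88.3 TPM in AP (median 74.9) and 74 to 111 TPM in SAP (median 87.3), with log2 changes of 0.51 ± 0.12 in AP (adjusted p = 0.0168) and 0.81 ± 0.12 in SAP (adjusted p = 1.1e-06). The AP values reached from the control range up to the SAP range. Its partner Uqcrc1 was at 102 ± 14.8, 136 ± 27.1 and 152 ± 17.5 TPM in controls, AP and SAP and rose in AP (adjusted p = 0.0466) and SAP (adjusted p = 0.000116). The AP call of Uqcrc1 held in 6 of 16 fits with a library left out and in 0 of 4 other scalings, where its log2 change went down to 0.21 from 0.41. Uqcr10, another small subunit, was at 440.5 ± 99.4, 635 ± 124 and 549 ± 42.5 TPM in controls, AP and SAP and rose in both (adjusted p = 0.023 and 0.0233). Its AP call was lost without any of Con 1, 7 and 10 and AP 15 and 17, its SAP call without Con 1, and each held in 2 of 4 other scalings, where the SAP change went down to 0.073 from 0.35. Uqcrfs1, the Rieske iron-sulphur protein that passes electrons on to cytochrome c1, passed in neither comparison, at 121 ± 17.9, 135 ± 13.5 and 117 ± 13.1 TPM.

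The Uqcrc1 to Uqcrq ratio was 0.0427 ± 0.0068 in controls, 0.0654 ± 0.0209 in AP and 0.188 ± 0.0526 in SAP. Summed over its 8 members, complex III was at 4708 ± 381 in controls, 4869.5 ± 253 in AP and 2907 ± 248 in SAP (TPM), and Uqcrq and Uqcr11 were its most abundant members in controls. The lower sum in SAP followed these abundant members: of the 8, 4 were called higher in SAP and 3 lower, where 44.2% and 29.8% of all genes tested were.

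**Figure D2:**
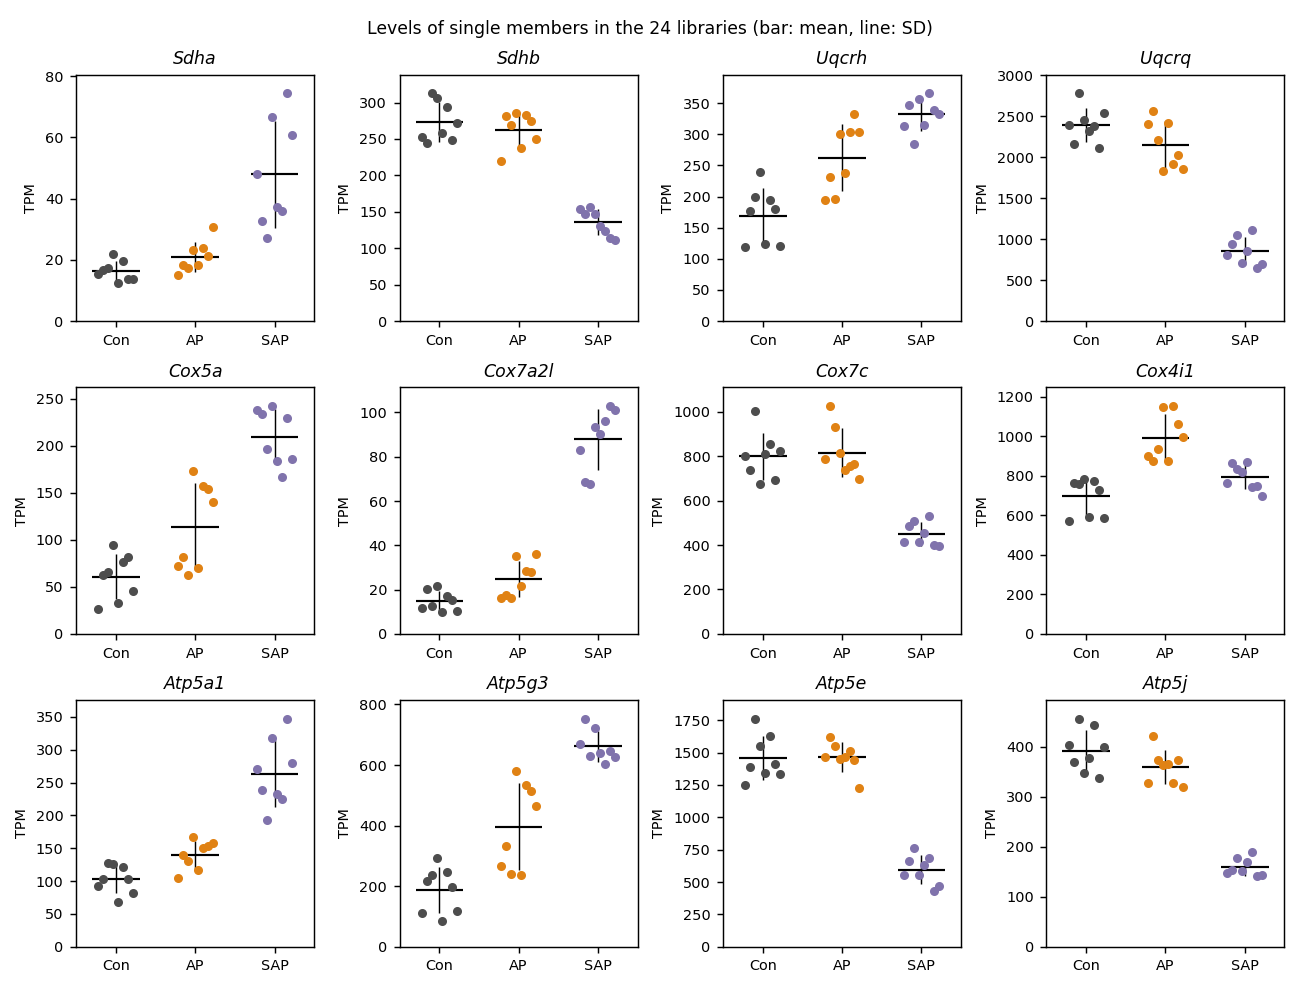
TPM of 12 members in each of the 24 libraries (points), with the mean (bar) and SD (vertical line) of the 8 libraries of a group. All SAP points lie above all control points for Sdha, Uqcrh, Cox5a, Cox7a2l, Atp5a1 and Atp5g3, and below them for Sdhb, Uqcrq, Cox7c, Atp5e and Atp5j; Cox4i1 is highest in AP.

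Cox7a2l had the largest change of all members in SAP. Its product resembles the 7a subunits and has a reported role in joining complex III and complex IV into supercomplexes, which were not measured here. Levels were 9.97 to 21.6 TPM in controls (median 13.8), 16 to 35.9 TPM in AP (median 24.7) and 67.8 to 103 TPM in SAP (median 91.9). All SAP libraries lay above all others, 5.72-fold above controls (log2 change 2.52 ± 0.18, adjusted p = 7.74e-12), and it rose in AP as well (log2 change 0.69 ± 0.18, adjusted p = 0.0305). Of its 50-base windows 19.8% are shared with other transcripts. The AP call was lost when any of Con 1, 5, 7 and 10 or AP 15, 17, 18 and 19 was left out, and held in 2 of 4 other scalings.

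Cox5a, a matrix-side subunit that binds next to Cox4, rose second most in complex IV. Its level was 26.5 to 94.6 TPM in controls (median 64.4), 62.4 to 173 TPM in AP (median 111) and 167 to 242 TPM in SAP (median 213), with log2 changes of 0.90 ± 0.25 in AP (adjusted p = 0.0348) and 1.87 ± 0.25 in SAP (adjusted p = 2.55e-07). The control range of Cox5a was wide, so only 4 AP libraries lay above it, against 8 SAP libraries. Its AP call held in 9 of 16 fits with a library left out and in 1 of 4 other scalings. Cox5b, the zinc-binding neighbour, went the other way, from 569.9 ± 30.8 TPM in controls and 595 ± 50.9 TPM in AP to 347 ± 57.1 TPM in SAP (log2 change -0.73 ± 0.092, adjusted p = 1.24e-07), with 25.9% of its windows shared with other transcripts and a level that is uncertain for that. The ratio of Cox5a to Cox5b was 0.108 ± 0.0455 in controls, 0.193 ± 0.08 in AP and 0.619 ± 0.139 in SAP.

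Cox4i1, the regulatory subunit that binds ATP, had the smallest adjusted p of all members in AP. It was at 569.5 to 785 TPM in controls (median 743), 873 to 1154 TPM in AP (median 965) and 699 to 870.1 TPM in SAP (median 792). Every AP library lay above every control (log2 change 0.52 ± 0.094, adjusted p = 0.00378), while the SAP libraries all lay below every AP library and overlapped the controls, with a change of 0.20 ± 0.094 against controls (adjusted p = 0.0605) that ran from -0.077 to 0.20 over the 4 other scalings. A predicted gene overlaps Cox4i1 on the same strand and Emc8 on the other, so reads could be shared. Cox4i2, the form of lung and low oxygen, was listed at 0.32 to 1.02 TPM (median 0.63) in controls, 0.18 to 1.3 TPM (median 0.46) in AP and 0 to 0.44 TPM (median 0.07) in SAP, too low to be tested.

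Cox6a1, the liver form of a subunit at the dimer interface, was at 340.4 to 791 TPM in controls (median 565), 624 to 1312 TPM in AP (median 959) and 792 to 1159 TPM in SAP (median 994). It rose in AP (log2 change 0.80 ± 0.17, adjusted p = 0.0118) and SAP (0.82 ± 0.17, adjusted p = 0.000158), and the SAP to AP difference was 0.023 ± 0.17 (adjusted p = 0.91). The muscle form Cox6a2 did not exceed 3.06 TPM in any library. Cox8a, the common form of a small membrane subunit, was at 307 to 442 TPM in controls (median 405), 439.9 to 648 TPM in AP (median 506) and 331 to 486 TPM in SAP (median 444), higher in AP (log2 change 0.49 ± 0.12, adjusted p = 0.017) and at 0.17 ± 0.12 in SAP (adjusted p = 0.19). The AP call of Cox8a held in 3 of 4 other scalings, and its SAP change ran from -0.11 to 0.17 over them. Cox8c, a testis form, was listed at 0 in all 24 libraries, as was Cox7b2.

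Several other complex IV subunits fell in SAP. Cox7c, a small subunit of the membrane part, was at 675 to 1002 TPM in controls (median 805), 699.8 to 1028 TPM in AP (median 777) and 395 to 532 TPM in SAP (median 435), with a log2 change of -0.82 ± 0.10 in SAP (adjusted p = 5.39e-08) and 0.029 ± 0.10 in AP. All SAP libraries lay below all others, although 53.0% of its windows are shared with other transcripts and the level is uncertain. Cox6b1, which joins the monomers on the outer side, was at 621 to 768 TPM in controls (median 714), 655 to 845 TPM in AP (median 758) and 416 to 571 TPM in SAP (median 477), and its 8 SAP libraries also lay below all others (log2 change -0.56 ± 0.085, adjusted p = 1.94e-06). The testis form Cox6b2 was at 1.4 ± 1.1, 1.38 ± 0.51 and 1.45 ± 0.738 TPM in controls, AP and SAP. Cox7b fell to 134 ± 25.4 TPM from 215 ± 43.6 TPM (adjusted p = 8.73e-05). Cox6c fell least, to 551 ± 127 TPM from 665 ± 99 TPM (adjusted p = 0.0444), a call that was lost without any of 12 libraries and was positive, at 0.069, once a length trend was removed.

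The 7a family shows a change of make-up. Cox7a2, the liver form, was at 92.3 to 179 TPM in controls (median 128), 147 to 233 TPM in AP (median 176) and 136 to 192 TPM in SAP (median 164) and rose in AP (log2 change 0.51 ± 0.13, adjusted p = 0.0285) and SAP (0.37 ± 0.13, adjusted p = 0.0161). The AP call of Cox7a2 was lost without any of Con 1, 7 and 10 and AP 15, 17 and 18 and held in 0 of 4 other scalings, and the SAP call held in 2 of 4, where the change went down to 0.094. Cox7a1, the form of muscle and brown fat, was at 7 to 12.2 TPM in controls (median 8.41), 5.98 to 12.1 TPM in AP (median 8.46) and 1.67 to 12.1 TPM in SAP (median 4.07) and fell in SAP (log2 change -0.96 ± 0.23, adjusted p = 0.000643), a call lost with a length trend removed (-0.50, adjusted p = 0.0612). Of its SAP libraries 7 lay below every control, and SAP 28, at 12.1 TPM, lay within the control range. That library also held the brown fat markers Ucp1 at 12.1 TPM (0 to 0.03 TPM in all others) and Adipoq at 10.7 TPM, and Cox8b, the muscle and brown fat form of subunit 8, at 29.7 TPM where the other 7 SAP libraries were at 0; their part in these levels was not tested. Cox8b passed in neither comparison. As shares of the TPM of Cox7a1, Cox7a2 and Cox7a2l, Cox7a2l made up 9.77 ± 1.77 in controls, 11.4 ± 2.77 in AP and 34.4 ± 5.49 in SAP (%), and Cox7a2 made up 84.1 ± 1.62 in controls, 84.5 ± 3.23 in AP and 63.8 ± 5.99 in SAP (%).

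**Figure D3:**
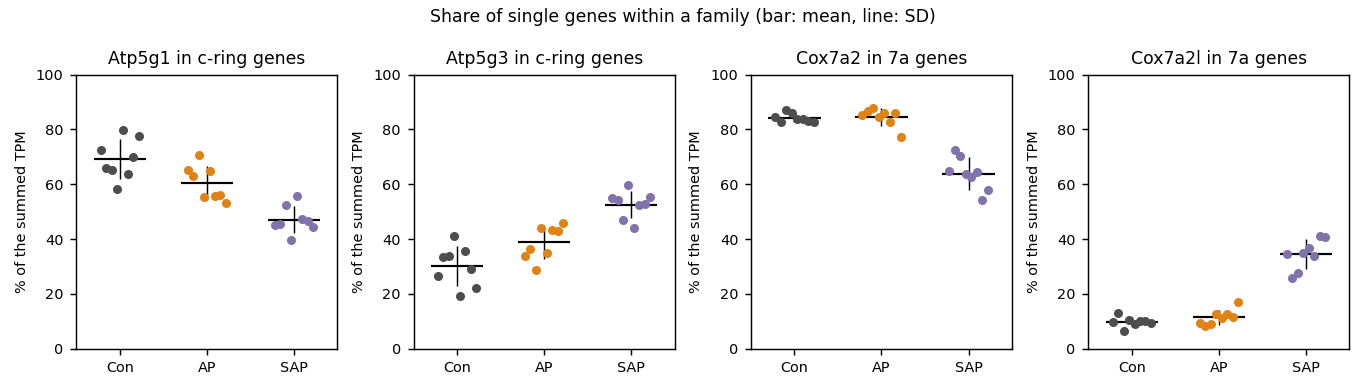
Share of Atp5g1 and Atp5g3 in the summed TPM of the c-ring genes, and of Cox7a2 and Cox7a2l in that of the 7a genes, in each library (points), with mean (bar) and SD (line) over 8 libraries. All SAP points for Atp5g3 and Cox7a2l lie above all control points, and those for Atp5g1 and Cox7a2 below them.

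In complex V the catalytic head, the F1 part, held both directions. Atp5a1, the alpha subunit, was at 67.6 to 127 TPM in controls (median 103), 104 to 167 TPM in AP (median 145) and 193 to 347 TPM in SAP (median 255). All 8 SAP libraries lay above all others, 2.56-fold above controls (log2 change 1.35 ± 0.14, adjusted p = 4.31e-09), while in AP the change was 0.45 ± 0.14 (adjusted p = 0.057). Atp5b, the beta subunit that holds the catalytic sites, was at 262 to 634 TPM in controls (median 448), 452 to 796 TPM in AP (median 588) and 598 to 1067 TPM in SAP (median 769.8), with a log2 change of 0.96 ± 0.17 in SAP (adjusted p = 1.71e-05). Of its SAP libraries 1 lay within the control range. Alpha and beta subunits are present in equal number in the enzyme, and the Atp5b to Atp5a1 transcript ratio was 4.03 ± 0.548 in controls, 4.28 ± 0.467 in AP and 3.05 ± 0.434 in SAP.

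Atp5e, the epsilon subunit of the central stalk, fell most in complex V. It was at 1249 to 1763 TPM in controls (median 1399.7), 1228 to 1620.1 TPM in AP (median 1465) and 432 to 762 TPM in SAP (median 594), with all SAP libraries below all others and 2.47-fold below controls (log2 change -1.31 ± 0.11, adjusted p = 6.96e-11). In AP its change was 0.013 ± 0.11 (adjusted p = 0.97). The other central stalk subunits did not pass in SAP. Atp5c1, the gamma subunit, was at 159.6 ± 28, 206 ± 27.7 and 158 ± 18.2 TPM in controls, AP and SAP, with adjusted p = 0.0536 in AP and 0.995 in SAP. Atp5d, the delta subunit, was at 227 ± 34.6, 302 ± 55.7 and 262 ± 36.9 TPM and passed in AP (adjusted p = 0.0483), with an adjusted p of 0.126 in SAP. The AP call of Atp5d held in 6 of 16 fits with a library left out and in 0 of 4 other scalings, where the log2 change went down to 0.20 from 0.40, and its SAP change ran from -0.070 to 0.27 over them. The Atp5a1 to Atp5e ratio was 0.0702 ± 0.0098 in controls, 0.0963 ± 0.0196 in AP and 0.472 ± 0.181 in SAP.

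The peripheral stalk, which holds the head still while the rotor turns, summed to 729.9 to 848 TPM in SAP and 1206 to 1534 TPM in controls. Atp5j, coupling factor 6, was at 337 to 456 TPM in controls (median 388), 319 to 421 TPM in AP (median 365) and 142 to 189 TPM in SAP (median 153), all SAP libraries below all others (log2 change -1.29 ± 0.088, adjusted p = 2.3e-12). Atp5j overlaps Gabpa on the opposite strand, and whether counting used strand is not given in the sources used here. Atp5h, subunit d, went from 577 ± 37 TPM in controls to 264 ± 22.7 TPM in SAP (log2 change -1.13 ± 0.076, adjusted p = 1.73e-12), and Atp5o, the subunit that ties the stalk to the head, from 282 ± 33.6 to 221 ± 17.1 TPM (log2 change -0.34 ± 0.089, adjusted p = 0.00139; -0.053, adjusted p = 0.64, with a length trend removed). Both share over 20% of their windows with other transcripts, 38.8% and 36.2%, so their levels are uncertain. Atp5f1, subunit b, rose instead, to 117 ± 21.4 TPM in AP and 152 ± 15.2 TPM in SAP from 81.8 ± 22.9 TPM in controls (adjusted p = 0.0366 and 4.91e-06), with 23.2% of its windows shared. The AP call of Atp5f1 held in 9 of 16 fits with a library left out and in 1 of 4 other scalings.

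The c-ring is the proton-driven rotor, and its identical subunit is encoded by Atp5g1, Atp5g2 and Atp5g3, whose mature products are the same. Atp5g3 was at 84.5 to 293 TPM in controls (median 206), 238 to 581 TPM in AP (median 398) and 603 to 753 TPM in SAP (median 642). It had the largest AP change of all members (log2 change 1.10 ± 0.23, adjusted p = 0.0101) and a larger change in SAP (1.92 ± 0.23, adjusted p = 5.99e-08), where all 8 libraries lay above all AP and control libraries. Atp5g1 was at 301 to 474 TPM in controls (median 419.6), 442 to 729 TPM in AP (median 583) and 482 to 813 TPM in SAP (median 559) and rose in AP (log2 change 0.53 ± 0.12, adjusted p = 0.0166) and SAP (0.54 ± 0.12, adjusted p = 0.000338). These calls of Atp5g1 held in 1 and 3 of 4 other scalings, and both were lost with a length trend removed (adjusted p = 0.0685 and 0.161). Atp5g2 was low, at 1.72 to 6.3 TPM in controls (median 4.4), 1.35 to 12.7 TPM in AP (median 7.91) and 1.53 to 8.23 TPM in SAP (median 4.99), and passed in neither comparison; 87.4% of its windows are shared with other transcripts, so its level is uncertain. Summed over the 3 genes, the c-ring reached 602 ± 121 in controls, 997 ± 233 in AP and 1266 ± 115 in SAP (TPM), and the share of Atp5g3 was 30.2 ± 7.32 in controls, 38.8 ± 6.13 in AP and 52.5 ± 4.94 in SAP (%).

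The small subunits of the membrane part, which help to shape the cristae, went both ways in SAP. Atp5l, subunit g, rose to 310.1 ± 26.9 TPM from 206 ± 33 TPM (adjusted p = 9.38e-06), with 68.5% of its windows shared, and Atp5mpl rose to 403 ± 33.1 TPM from 276 ± 89.4 TPM (adjusted p = 0.00115). Atp5j2, subunit f, fell to 191 ± 28.4 TPM from 293 ± 38.2 TPM (adjusted p = 7.07e-06), and Atp5k, subunit e, to 239 ± 30.3 TPM from 332 ± 48.3 TPM (adjusted p = 0.000713). With a length trend removed the Atp5k change was -0.021 (adjusted p = 0.863). Summed, these 4 were at 1108 ± 191 in controls, 1356 ± 171 in AP and 1144 ± 70.3 in SAP (TPM). Atp5s, known as factor B, was the lowest tested member of complex V, at 1.64 ± 0.847, 2.41 ± 0.676 and 4.62 ± 2.4 TPM in controls, AP and SAP, and rose in SAP (adjusted p = 0.000307).

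**Figure D4:**
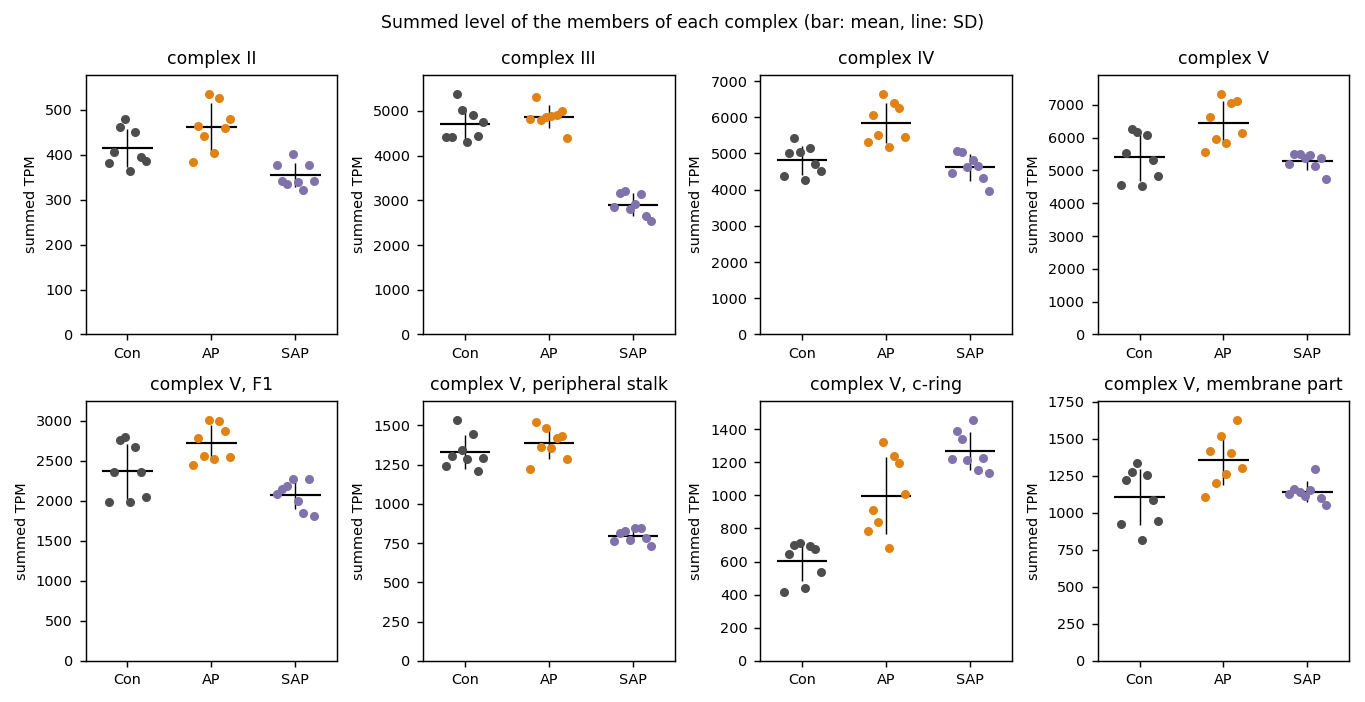
Summed TPM of the members of each complex, and of the 4 parts of complex V, in each library (points), with mean (bar) and SD (line) over 8 libraries. All SAP points lie below all control points for complex III and for the peripheral stalk, and above them for the c-ring, while complex V as a whole overlaps between SAP and controls. Each sum weighs its most abundant members most.

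SAP was also compared with AP directly. There 11 members rose, 19 fell and 13 did not pass, where 72.1% of all genes tested were called, 41.0% higher and 31.0% lower. Groups did not overlap for 3 members above, Cox7a2l, Atp5a1 and Atp5g3, and for 15 below, where 22.0% and 15.2% of all genes tested were separated. Cox7a2l had the largest difference (log2 1.83 ± 0.18, adjusted p = 2.72e-09), and Uqcrq the largest in the other direction (-1.35 ± 0.11, adjusted p = 1.03e-10). Members that passed in AP against controls did not all move further in SAP: Cox4i1 (-0.32 ± 0.094, adjusted p = 0.00409), Sdhc (-0.47 ± 0.10, adjusted p = 0.000235) and Cox8a (-0.33 ± 0.12, adjusted p = 0.0144) were lower in SAP than in AP. With a length trend removed, Sdhc stayed lower while Cox4i1 (0.064, adjusted p = 0.513) and Cox8a (0.18, adjusted p = 0.175) did not pass and had the other sign. The calls of Atp5b, Atp5f1, Uqcrc2 and Uqcrh in this comparison were lost without at least 1 of AP 11, 12, 13 and 16 and SAP 25 and 28. The AP and SAP libraries are the same as in the comparisons with controls. When each library was centred on its median, 7 members were higher and 25 lower in SAP than in AP, but all genes tested shifted too, to 35.1% higher and 40.5% lower. After rescaling without mitochondrial genome transcripts 7 were higher and 23 lower, against 38.1% and 33.4% of all genes tested.

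The AP libraries were not alike. AP 15, 17, 18 and 19 form a set known from earlier results of these data. In 11 of the 16 members that rose in AP these 4 all lay above AP 11, 12, 13 and 16. Among all genes called higher in AP the same order held in 50.1%. Cox5a was at 140.0 to 173 TPM in AP 15, 17, 18 and 19 and 62.4 to 82 TPM in AP 11, 12, 13 and 16, Atp5g3 at 463 to 581 TPM in AP 15, 17, 18 and 19 and 238 to 332 TPM in AP 11, 12, 13 and 16, and Uqcrh at 300.3 to 332 TPM in AP 15, 17, 18 and 19 and 194 to 238 TPM in AP 11, 12, 13 and 16. Uqcrq had the reverse order, at 1831 to 2024 TPM in AP 15, 17, 18 and 19 and 2215 to 2568 TPM in AP 11, 12, 13 and 16. In 5 of the 16, AP 11, 12, 13 and 16 all lay within the control range. Without AP 15, 17, 18 and 19 the count of members called in AP was 0, where 0.0853% of all genes tested were called higher (9 genes) and 2 genes lower, so nothing can be read from it about the members. Leaving out single libraries gave counts of 8 (Con 7 or AP 15, with 1.28% and 1.29% of all genes called higher) to 21 (Con 6, with 6.48%). Of the 16 calls, 8 held with each of the 16 libraries left out in turn; the other 8 (Cox5a, Cox7a2, Cox7a2l, Uqcr10, Uqcrc1, Atp5d, Atp5f1 and Atp5l) were lost without at least 1 of Con 1, 5, 7, 8, 9 and 10 and AP 15, 17, 18 and 19. The mitochondrial genome share moved with this division, at 7.81 to 10.3% in AP 15, 17, 18 and 19 and 11.5 to 13.7% in the other 4.

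Controls also differed among themselves. In 14 of the 16 members the lowest 3 controls were Con 1, 7 and 10, which held mitochondrial shares of 19.8 to 22.2% against 12.5 to 16.0% in the other 5; these 3 were the lowest controls for 53.6% of all genes called higher in AP and for 13.5% of all genes tested. With TPM rescaled without the mitochondrial genome transcripts, 9 of 43 members rose in AP, where 1.99% of all genes tested were called higher. The AP calls that held in all 4 other scalings were the 6 of Sdhc, Uqcrc2, Uqcrh, Cox4i1, Cox6a1 and Atp5g3. The part of the mitochondrial share in the AP result was not tested beyond that rescaling. Among SAP libraries, 21, 22, 24 and 25 against 26 to 29 separated 3 of the 43 tested members, Sdhb, Atp5mpl and Uqcr10. The share of all genes tested that this division separates is not given here, so the 3 cannot be read as few or many.

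Among members, transcript length and mean TPM both moved with the direction in SAP. Members that rose had a median length of 1153.5 bases and those that fell 630 bases, against 2694 and 2020.5 bases over all genes called in the same directions. Across the 43 members, Spearman's rho between length and the change in SAP was 0.36, and over 10536 genes 0.14, given as a description across genes that share the same libraries. Single members departed from the order of length: Cox5a (645 bases) and Uqcrh (547 bases) rose while Uqcrq (963 bases) and Sdhb (1142 bases) fell. Between mean TPM and the change in SAP, rho was -0.39 across the members and -0.064 over the 10536 genes. With the length trend of each library removed, an alternative chosen after the data were seen, 19 members rose and 12 fell in SAP against controls, where 39.1% of all genes tested were called higher and 37.8% lower. Cox7a2l (log2 change 2.52), Uqcrq (-1.42) and Sdhb (-1.05) kept their direction and call. The falls of Atp5k, Atp5o, Uqcrb, Cox7a1 and Cox6c and the rise of Atp5g1 were no longer called, while Cox4i1 (0.43, adjusted p = 7.89e-05) and Cox8a (0.57, adjusted p = 0.000131) were called higher and Sdhc (-0.31, adjusted p = 0.01) lower. In AP against controls 12 rose and 0 fell after the same step, where 5.44% of all genes tested were called higher, and the calls of Atp5d, Atp5f1, Atp5g1 and Uqcrc1 were lost. Without that step, rho in AP was 0.23 with length and -0.13 with mean TPM across members, and -0.17 and 0.30 over the 10536 genes. The median length was 718.5 bases for members, 2418 for those genes and 1408 for genes called higher in AP. Members were not set against genes matched for length or level. RNA quality was not measured in the files used, and its part was not tested.

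**Figure D5:**
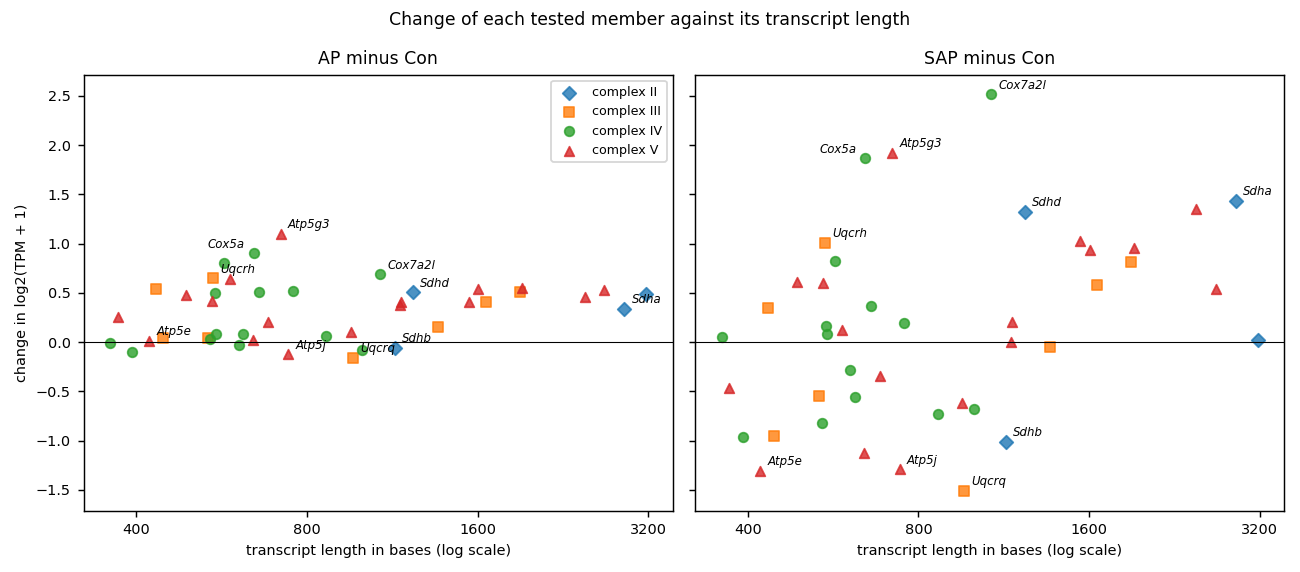
Change of each of the 43 tested members in log2(TPM + 1) against the median transcript length of its gene in bases (log axis), in AP and in SAP against controls, with a marker per complex. In SAP, members under 800 bases lie on both sides of 0, from -1.31 for Atp5e to 1.92 for Atp5g3, and the longest, such as Sdha, lie at or above 0.

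The spread within groups differed between members. In controls the coefficient of variation over 8 libraries was 5.41% for Cox5b, 6.26% for Cox6b1 and 6.42% for Atp5h, the lowest of the tested members, and 39.9% for Atp5g3 and 39.6% for Cox5a. In SAP that of Atp5g3 was 7.76% and that of Cox5a 14.1%.

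Other genes of the pathway were followed from lists. The 36 nuclear-encoded complex I subunits gave 9 rises (25.0%) and 0 falls in AP. In SAP against controls they gave 5 rises (13.9%) and 22 falls (61.1%), with a median change of -0.38. Over all genes tested, 4.35% were called higher and 1.13% lower in AP, and 44.2% higher and 29.8% lower in SAP. Of 4 tested subunits or partners that the symbol rule left out (Cyc1, Usmg5, Atpif1 and Ndufa4), 2 rose and 2 fell in SAP, and 0 passed in AP (2 at an unadjusted p under 0.05). Ndufa4, a subunit now placed in complex IV, rose to 552 ± 68.3 TPM from 359 ± 126 TPM (adjusted p = 0.00124), and Atpif1, the inhibitor of complex V, fell to 20.1 ± 4.27 TPM from 33.1 ± 9.01 TPM (adjusted p = 0.000424). Cytochrome c itself, Cycs, was at 31.1 ± 5.98, 27.8 ± 4.74 and 34.7 ± 3.57 TPM in controls, AP and SAP, and passed only in SAP against AP (adjusted p = 0.0149).

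Of 6 tested subunits of complexes III to V that the mitochondrial genome encodes, 1 fell in AP and 4 fell in SAP against controls, with 0 rises in both. Over all genes tested, 1.13% were called lower in AP and 29.8% in SAP. mt-Co1, the catalytic core of complex IV, was at 67285 ± 16350.2, 39467 ± 8610.0 and 11592 ± 2291 TPM in controls, AP and SAP (log2 change -0.77 ± 0.16, adjusted p = 0.0087 in AP; -2.53 ± 0.16, adjusted p = 3.39e-13 in SAP). In AP, therefore, mt-Co1 fell while Cox4i1 and Cox6a1 rose. mt-Co3 was at 2791 ± 720.2, 1635 ± 438 and 591 ± 222 TPM.

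Assembly factors, which insert cofactors and join subunits, passed in AP in 0 of 41 tested (9 at an unadjusted p under 0.05). In that comparison 5.48% of all genes tested were called. In SAP against controls 6 of 26 for complex IV rose and 13 fell, and the other lists held 0 rises and 3 falls of 6 for complex III, 0 and 2 of 4 for complex II and 1 and 2 of 5 for complex V. Of all genes tested, 44.2% were called higher and 29.8% lower there. The share called either way was 73.1% for complex IV assembly and 74.0% for all genes. Uqcc2, needed for cytochrome b synthesis, was at 193 ± 22.7, 165 ± 11.1 and 41.1 ± 8.32 TPM in controls, AP and SAP (adjusted p = 4.11e-15 in SAP), and its partner Uqcc3 at 75.5 ± 8.47, 80.9 ± 7.8 and 26.7 ± 3.83 TPM (adjusted p = 1.14e-12). For complex IV, Pet100 was at 146 ± 24.3, 108 ± 22.6 and 21.7 ± 8.84 TPM (adjusted p = 1.65e-12) and the copper-handling Cox19 at 49.1 ± 10.0, 47.7 ± 5.58 and 16.7 ± 2.75 TPM (adjusted p = 6.7e-11). Fmc1, which acts in F1 assembly, was at 86 ± 17.4, 86.3 ± 12.7 and 29.8 ± 5.14 TPM (adjusted p = 1.89e-10).

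Of 12 tested transcription factors of mitochondrial genes, 9 were called higher and 2 lower in SAP, and 0 were called in AP (1 at an unadjusted p under 0.05). The shares of all genes tested were 44.2% higher and 29.8% lower in SAP, and 5.48% in either direction in AP. Nrf1, which binds promoters of many respiratory genes, was at 1.26 ± 0.408, 1.25 ± 0.27 and 4.54 ± 1.21 TPM in controls, AP and SAP (adjusted p = 2.68e-09 in SAP), Gabpa, an ETS factor, at 1.3 ± 0.26, 1.5 ± 0.255 and 5.13 ± 1.42 TPM (adjusted p = 2.85e-10), and Tfam, which packs and transcribes the mitochondrial genome, at 2.95 ± 0.451, 3.94 ± 0.972 and 13.1 ± 5.27 TPM (adjusted p = 1.03e-08). Esrra, an oestrogen-related receptor, fell, at 18.2 ± 4.79, 16 ± 1.93 and 4.33 ± 1.63 TPM (adjusted p = 1.88e-10). The coactivator Ppargc1a was too low to be tested, at 0.24 ± 0.0723, 0.171 ± 0.0461 and 0.581 ± 0.541 TPM. Of 19 genes for mitochondrial mass and carriers, 12 rose and 2 fell in SAP and 1 rose in AP. In SAP 73.7% of this list was called, against 74.0% of all genes tested, and in AP 5.26%, against 5.48%. Tomm20, an import receptor, was at 16.2 ± 5.09, 21.8 ± 7.29 and 100.4 ± 20.5 TPM (adjusted p = 5.54e-11), and Timm23, an inner membrane channel, at 78.3 ± 9.75, 80.3 ± 5.91 and 129.6 ± 10.9 TPM (adjusted p = 3.64e-08).

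Markers of some other cell types moved with the SAP group, and their part in the changes of the members was not tested. Some lists are not described further. In SAP against controls, the calls were 0 of 2 tested monocyte markers, 0 of 1 for cholangiocytes and 0 of 1 for muscle. For exocrine pancreas 1 of 1 was called, lower. No T, NK or B cell marker passed the filter. In SAP against controls 44.2% of all genes tested were called higher and 29.8% lower. The 7 neutrophil markers summed to 2.43 to 27.6 TPM in controls, 3.36 to 7.39 TPM in AP and 123 to 348 TPM in SAP. S100a9 was the highest in SAP, at 92.7 to 228 TPM. The 3 that were tested, S100a8, S100a9 and Retnlg, were called higher in SAP. Retnlg was at 0 to 0.41 TPM in controls, 0 to 0.59 TPM in AP and 3.11 to 9.53 TPM in SAP. It passed the filter only through its SAP values, so its call is not separate support for a rise. Most of that SAP sum was S100a8 and S100a9. Ly6g, Camp, Mpo and Elane were too low to be tested. Ly6g was at 0 to 0.22 TPM in controls and 0.27 to 1.32 TPM in SAP, and Camp at 0 to 0.69 and 0.45 to 1.95 TPM. Mpo was at 0 to 0.43 and 0.02 to 0.46 TPM, and Elane at 0 to 0.58 and 0 to 0.3 TPM. The 5 stellate cell markers summed to 20.7 to 38.2 TPM in controls, 11.4 to 34.1 TPM in AP and 49.7 to 114 TPM in SAP. Most of that sum was Dcn, at 48 to 107 TPM in SAP; Reln rose as well, while Des fell (log2 change -1.11, adjusted p = 4.65e-05; 1.42 to 5.04 TPM in controls and 0.19 to 1.58 TPM in SAP), and Lrat and Pdgfrb, too low to be tested, were at most 0.98 TPM in controls and 0.72 TPM in SAP.

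The 5 adipocyte and brown fat markers summed to 3.09 to 5.87 TPM in controls, 4.21 to 8.87 TPM in AP and 39.6 to 376 TPM in SAP. That sum was carried by Fabp4, at 36 to 338 TPM in SAP. Outside SAP 28, the other 7 SAP libraries held Cidea at 1.11 to 4.13 TPM, Adipoq at 0 to 0.8 TPM, Ucp1 at 0 to 0.03 TPM and Plin1 at 0 to 0.02 TPM.

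The 5 endothelial markers summed to 14.3 to 38.5 TPM in controls, 13.3 to 40.9 TPM in AP and 11 to 40.8 TPM in SAP, ranges that overlap although single genes moved. Stab2 rose in SAP (1.42 to 2.83 TPM in controls and 2.99 to 17.03 TPM in SAP, log2 change 1.66, adjusted p = 1.14e-06). Clec4g fell (10.4 to 30.3 TPM and 1.53 to 4.69 TPM, log2 change -2.21, adjusted p = 2.44e-09). Lyve1 was at 0.12 to 0.6 TPM in controls, 0.09 to 0.63 TPM in AP and 3.53 to 18.7 TPM in SAP. It passed the filter only through its SAP values, so its call there is not separate support for a rise. Kdr, too low to be tested, was at 0.64 to 1.74 TPM in controls and 0.17 to 0.94 TPM in SAP. The 7 Kupffer cell and macrophage markers summed to 56.6 to 216 TPM in controls, 40.6 to 126 TPM in AP and 44 to 87.9 TPM in SAP; 5 of 6 tested fell in SAP and Marco rose (log2 change 2.68, adjusted p = 1.08e-05). The 5 red cell markers summed to 139 to 401 TPM in controls, 88.3 to 459 TPM in AP and 51.2 to 183 TPM in SAP, with 1 of 4 tested, Alas2, called lower. In each of these 6 lists every marker was above 0 TPM in at least 1 library. In AP none of them had a tested gene that passed in limma (1 of 22 at an unadjusted p under 0.05), and the neutrophil sum lay within the control range. Over all genes tested, 5.48% were called in AP. Among these markers Ly6g, Camp, Mpo, Elane, Retnlg, Reln, Stab2, Kdr, Lrat, Pdgfrb, Adipoq, Ucp1 and Plin1 were named after their values were seen.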

How the data were processed

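RNA-seq of 24 liver libraries was used, 8 per group, with RNA extracted by Trizol from frozen liver and standard Illumina libraries, per the labels' protocols. The authors deposited 1 table of 55536 entries in TPM with 2 decimals. No header names this unit, which was inferred: columns summed to just under 1000000, and among genes at 0 in some library the smallest non-zero values were lower for longer transcripts (median 0.16 TPM at 300 to 600 bases, 0.01 TPM at 3000 to 6000 bases). The only tool that the authors name, per the submitters' processing notes, is edgeR, with neither role nor version. For the aligner, build, annotation and strand setting: not given in the sources used here. No read counts were at hand, so count tests were not run and no counting interval is given.

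All 24 columns were mapped by title, with 0 left unmapped. Genes averaging 1 TPM or more (10555, with 44981 left out) were fitted with limma 3.58.1 in R 4.3.3 on log2(TPM + 1), with an intensity trend, with group as the only factor and all 24 libraries in it (residual degrees of freedom: 21), and p-values were adjusted by Benjamini-Hochberg over all genes tested within a comparison. The fit was checked on simulated data. Sums, shares and ratios are descriptions with no test. Levels are given for the 2 highest, the 2 most raised and the 2 most lowered members of each complex in SAP, the smallest p in AP, and isoform families, and from other lists the 2 genes with the smallest p over the groups; further members and Ppargc1a, Nrf1, Gabpa, Esrra and Tfam are named whatever their values. The members, lists and alternatives were chosen with earlier results of these data known. Symbols of 99.81% of entries occur in GENCODE M21, which gave transcript lengths, overlaps and 50-base windows shared with other genes; from 20% a level was taken as uncertain. Alternatives were quantile normalization, centring on the median, rescaling without mitochondrial or the 50 highest transcripts, other filters, pseudocounts, models, thresholds and sets of libraries, and removal of a length trend.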

Additional observations from a re-analysis of the deposited data

Results flagged for a closer look

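In 7 of 129 tests for a library far from the other 7 of its group, the gap to the next library divided by the range was above Dixon's critical value of 0.526; chance flags about 1 in 20 such groups. Cox6c in SAP 27 was the highest of its group at 858.39 TPM, with the next library at 557.46 TPM. Uqcrc1 in SAP 27 was the lowest at 112.95 TPM, below 147.23 TPM. Atp5e in AP 19 was the lowest at 1228.12 TPM, below 1443.96 TPM. Cox6b2 in Con 3 was the highest at 3.7 TPM, above 1.72 TPM.

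The other 3 lay in muscle and brown fat forms. Cox8b in AP 17 was at 4.56 TPM, above 0.84 TPM, and AP 17 also held the muscle markers Ckm at 8.44 TPM, Acta1 at 8.49 TPM and Tnnt3 at 7.01 TPM, and Cox6a2 at 3.06 TPM. Cox8b in SAP 28 was at 29.73 TPM, with 0 in the other 7, and Cox7a1 in SAP 28 was at 12.14 TPM, above 5.41 TPM. SAP 28 also held Ucp1 at 12.1 TPM, Cidea at 12.8 TPM, Fabp4 at 338 TPM and Plin1 at 2.32 TPM, the highest values of the SAP group. The part of these markers in the levels was not tested.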

How the results depend on the processing

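No paired analysis was possible because the groups share no replicate numbers. Directions of the members called held in all 4 other scalings (16 in AP against controls, 34 in SAP against controls, 30 in SAP against AP), while 6, 30 and 23 of them kept their call in all 4. The count of 16 members higher in AP fell to 7 with quantile normalization, 9 without mitochondrial transcripts, 7 without the 50 highest genes, 9 with no filter, 2 at an adjusted p under 0.01 and 0 without AP 15, 17, 18 and 19, and ran from 8 to 21 when single libraries were left out. The 11 higher in SAP than in AP became 7 with centring, 7 without mitochondrial transcripts, 6 at an adjusted p under 0.01 and 7 without SAP 26 to 29 (8 to 11 without single libraries). The 19 lower in SAP than in AP became 12 with the length trend removed. The counts of 18 higher and 16 lower in SAP against controls stayed within 1.5 times under every alternative run. Quantile normalization moved the median of all genes in SAP against controls from 0.21 to 0.032 and centring moved it to -0.063, with 4264 higher and 3926 lower, or 3888 and 4300, in place of 4661 and 3147. In AP the split over all genes was 459 and 119, against 388 and 265 with quantile normalization, 215 and 172 without mitochondrial transcripts and 196 and 215 without the 50 highest genes. Changes of sign of a value that was called with or without the alternative were those of Sdhc in SAP against controls, -0.26 with centring and -0.31 with the length trend removed, and, with that trend removed, Cox6c in SAP against controls (0.069) and Cox4i1 (0.064), Cox7a2 (0.30), Cox8a (0.18) and Uqcr10 (0.35) in SAP against AP; the cause was not tested. Values not called changed sign in at least 1 of the 4 scalings in 11 of 27 members in AP against controls, 8 of 9 in SAP against controls (among them Cox4i1, Atp5d and Cox8a) and 10 of 13 in SAP against AP. TPM keeps no depth, so the precision of low members such as Atp5s, Atp5g2 and Cox8b cannot be given.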
